A study of Mus musculus with 4 samples.

Results

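R-spondins, the LGR receptors that bind them and the membrane ubiquitin ligases they inhibit were examined in mammary tissue of mice labelled STAT5 KO or STAT5 WT. STAT5 is a pair of closely related transcription factors activated by prolactin and growth hormone. The set comprised 9 genes (Rspo1 to Rspo4, Lgr4 to Lgr6, Znrf3 and Rnf43), chosen by exact gene symbol, out of 18193 genes named on the array, and they were represented by 15 of its 45037 probe sets other than controls. The set was chosen with the KO-WT difference of Rspo1 already known, so the KO-WT values of all members are given as a description and support no test. RNA came from 2 KO mice and 2 WT mice, 1 array each, taken 6 days from an event that the design text does not name. The title of the series names STAT5A, whereas the genotype labels say STAT5 alone. Strain, age, the exons deleted and any Cre driver are not given in the sources used here, so in which cells STAT5 was lost cannot be told from the labels.

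R-spondins are secreted proteins that strengthen Wnt signalling. Without them, the transmembrane ubiquitin ligases ZNRF3 and RNF43 mark Frizzled receptors for removal from the cell surface. An R-spondin that binds an LGR receptor and one of these ligases clears the ligase from the membrane, and Frizzled and its coreceptor LRP5 or LRP6 then persist. In the mouse mammary gland Rspo1 is known as a product of luminal cells that acts together with Wnt4 on neighbouring basal cells.

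RefSeq promoters (build GRCm38.p6, 250 bases before to 50 after a transcription start) were at hand for 5 of the 9 members. Shown 5′ to 3′ on the gene's strand are those of the members with the largest KO-WT differences, Rspo1, Lgr6 and Rnf43, and that of Lgr4, whose signal was alike in both genotypes. Capitals mark CpG dinucleotides. Their positions are chr4:124986180-124986479 (plus strand) for Rspo1, chr1:135105227-135105526 (minus strand) for Lgr6, chr11:87662837-87663136 (plus strand) for Rnf43 and chr2:109917397-109917696 (plus strand) for Lgr4.
Rspo1: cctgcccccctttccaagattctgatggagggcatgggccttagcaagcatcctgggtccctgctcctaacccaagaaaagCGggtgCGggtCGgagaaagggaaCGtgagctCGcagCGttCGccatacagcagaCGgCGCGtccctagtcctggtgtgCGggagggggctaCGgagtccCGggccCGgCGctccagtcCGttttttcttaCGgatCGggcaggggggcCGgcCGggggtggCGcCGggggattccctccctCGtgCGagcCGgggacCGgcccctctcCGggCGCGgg
Lgr6: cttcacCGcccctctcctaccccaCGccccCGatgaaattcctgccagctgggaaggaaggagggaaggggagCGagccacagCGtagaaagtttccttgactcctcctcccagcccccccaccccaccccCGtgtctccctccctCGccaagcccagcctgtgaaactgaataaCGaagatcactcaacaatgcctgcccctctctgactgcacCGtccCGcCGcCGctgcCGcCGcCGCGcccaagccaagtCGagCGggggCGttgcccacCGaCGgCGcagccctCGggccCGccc
Rnf43: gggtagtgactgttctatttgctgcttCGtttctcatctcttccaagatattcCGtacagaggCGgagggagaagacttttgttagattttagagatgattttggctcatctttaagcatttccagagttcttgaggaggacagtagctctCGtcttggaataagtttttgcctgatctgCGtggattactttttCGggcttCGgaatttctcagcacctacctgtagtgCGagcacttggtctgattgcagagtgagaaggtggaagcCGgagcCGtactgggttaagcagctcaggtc
Lgr4: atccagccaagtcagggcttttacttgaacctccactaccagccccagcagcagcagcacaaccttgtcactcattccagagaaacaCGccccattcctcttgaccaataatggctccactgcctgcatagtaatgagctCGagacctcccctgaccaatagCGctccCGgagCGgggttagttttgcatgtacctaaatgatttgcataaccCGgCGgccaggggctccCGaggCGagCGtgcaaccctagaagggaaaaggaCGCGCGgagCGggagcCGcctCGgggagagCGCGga
The Rspo1 and Lgr6 promoters were rich in G and C, at 69.0% and 67.7%, with 29 and 24 CpG dinucleotides. The median over 32544 RefSeq promoters of the same length was 53.0% with 7 CpG. The Rnf43 promoter had 46.7% and 10 CpG, and that of Lgr4 had 58.3% and 18 CpG. Highest was that of Rspo4, a gene with dim signals in both genotypes, at 71.0% and 31 CpG. Another Rnf43 promoter had 44.3% and 3 CpG. Whether base composition goes with the KO-WT difference was not tested. Neither the STAT motif TTCNNNGAA nor the TCF/LEF motifs CTTTGAT and CTTTGAA, searched on both strands, occurred in any of the 6 promoters of these 5 genes, which include that of Rspo4 and another of Rnf43. TTCNNNGAA reads the same on both strands, and the TCF/LEF motifs differ only in their last base. Of all promoters, 8.33%, 3.73% and 5.15% held the motifs, in that order, so their absence from 6 windows of 300 bases says nothing on binding.

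Values are MAS5 signals on a linear scale. Differences are KO minus WT on the scale log2(signal + 16), and a probe set was tested where its mean log2 value over the 4 arrays was at least 7.15, a signal of 125.9. Stat5a and Stat5b, the genes that encode STAT5, still gave signals in KO. Stat5a read 1836 and 861 in KO and 2307 and 2061 in WT in its brighter probe set. Stat5b read 1069 and 712 in KO and 1522 and 1506 in WT. In all 4 probe sets of this pair both KO values lay below both WT values and none passed the threshold. Whether these probe sets lie inside a deleted part is not known, so they check the genotype only weakly. Stat5a and Stat5b read lower on KO replicate 2, whereas Rspo1, Lgr6 and Rnf43 read lower on KO replicate 1. Among cell type markers, 5 of 10 tested skeletal muscle genes rose in the limma fit and 0 fell. Of all 11360 tested genes, 1.21% were called higher and 1.36% lower. At an unadjusted p under 0.05, 10 of the muscle genes were higher and 0 lower, against 10.4% and 10.8% of all tested genes. The summed signal of all 12 muscle markers on the array, tested or not, was 6377 to 10629 in KO and 512 to 1598 in WT.

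Of the 15 member probe sets, 7 from 6 genes were bright enough to be tested, and 8 lay under the limit. Of the 7, 2 were called lower in KO in the limma fit across all probe sets (adjusted p under 0.05), those of Rspo1 and the brighter one of Lgr6, and 0 were called higher (4 lower and 0 higher at an unadjusted p under 0.05, where 10.6% and 9.01% of all tested probe sets lay). Over all 22519 tested probe sets, 1.04% were called lower and 0.955% higher. KO arrays lay below WT arrays with no overlap in 5 of the 7, against 28.0% of all tested probe sets, and above them in 0, against 23.9%. Of the 8 under the limit, 2 lay lower in KO with no overlap and 1 higher, against 22.8% and 16.5% of all probe sets under the limit. The median difference was -0.96 over the 7, in which Lgr6 counts with 2 probe sets, and -0.03 over all tested probe sets. With the brightest probe set of each of the 6 genes it was -0.56, against -0.01 over all tested genes. Since the limit is set on the mean of all arrays and the set was chosen by its KO-WT difference, these counts carry no weight of their own.

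**Figure D1:**
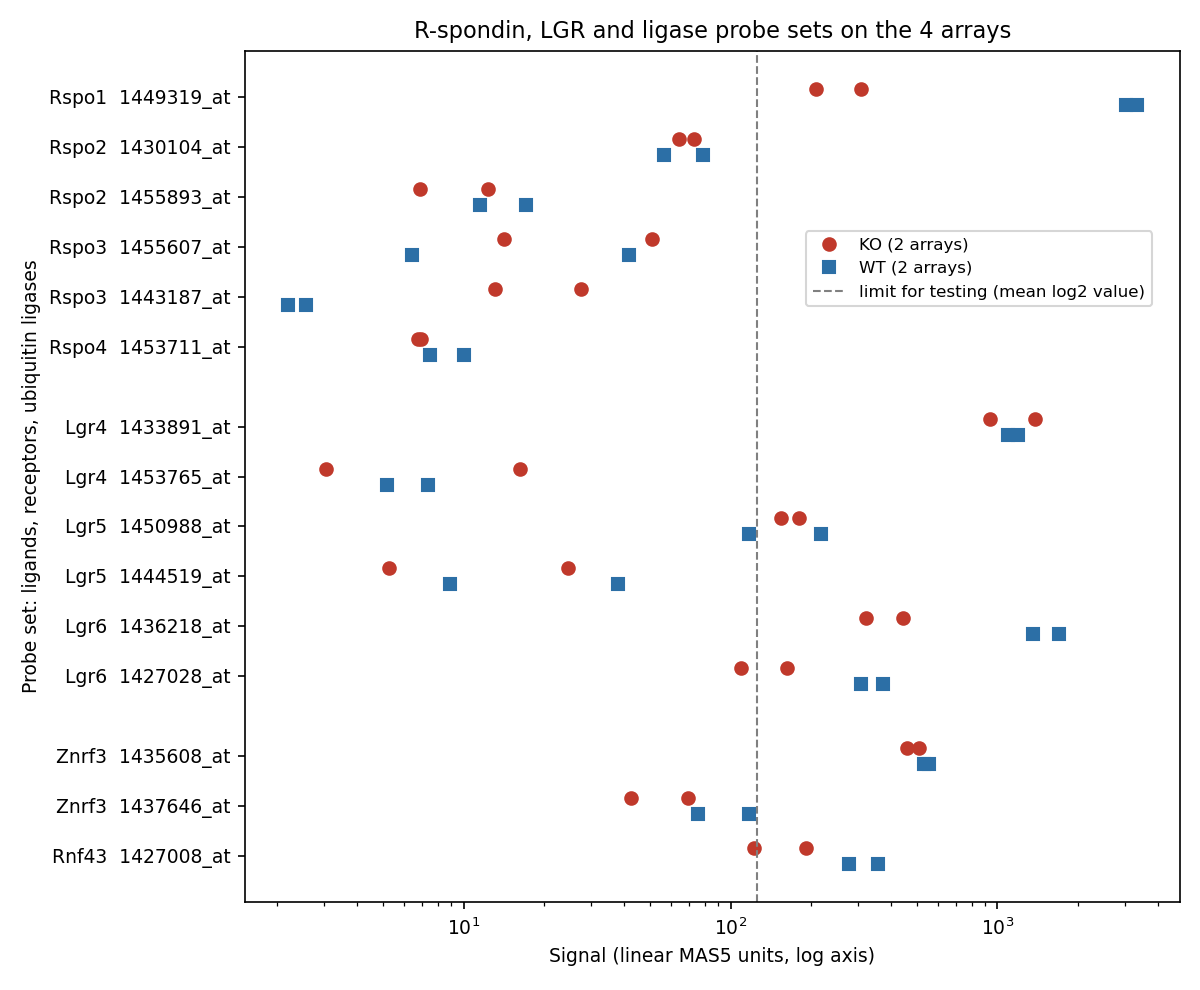
Signals of all 15 probe sets of the R-spondins (top), LGR receptors (middle) and ubiquitin ligases (bottom) on a log axis in linear MAS5 units, with red circles for the 2 KO arrays, blue squares for the 2 WT arrays and a dashed line at the limit for testing. Rspo1 stands at 209 and 308 in KO and 3341 and 3022 in WT, and the KO and WT arrays of Lgr6 are apart in both probe sets.

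Among the ligands, Rspo1 was the member with the largest difference. Its only probe set (1449319_at) read 209 and 308 on the KO arrays and 3341 and 3022 on the WT arrays. Both KO signals were far below both WT signals. The mean was 259 ± 69.8 in KO and 3181 ± 226 in WT (SD, n = 2 each), so KO stood at 8.13% of the WT level, with a range over single KO and WT arrays of 6.27% to 10.2%. The log2 difference was -3.56 (SE 0.20). The spread within a genotype was smaller, with 0.52 between the KO arrays and 0.14 between the WT arrays on the log2 scale. Among the 154 genes called lower over the whole array, this was the 5th largest fall. The KO signals still lay above the limit for testing.

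The other R-spondins gave dim signals in both genotypes. Rspo2, known for its part in limb and lung development, read 64.2 and 72.9 in KO and 78.6 and 56.1 in WT in its brighter probe set. The WT arrays enclosed both KO arrays, and its dimmer probe set also overlapped. Rspo3, known for its part in blood vessel development, read 50.6 and 14.2 in KO and 41.5 and 6.38 in WT in its brighter probe set, where the arrays overlapped. Its dimmer probe set read 27.5 and 13.1 in KO and 2.57 and 2.19 in WT, higher on both KO arrays. All 4 of these signals lie far under the limit for testing, and the 2 probe sets of Rspo3 did not show the same separation. Rspo4, which in humans is needed for nail formation, read 6.91 and 6.75 in KO and 10.0 and 7.45 in WT, lower on both KO arrays at signals far under the limit. No R-spondin other than Rspo1 had a probe set bright enough to be tested, so whether another ligand differs between the genotypes was not measurable here.

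The receptors did not move together. Lgr6, which marks progenitor cells of the mouse mammary gland and hair follicle, was lower in KO in both of its probe sets. The brighter one (1436218_at) read 323 and 444 in KO and 1362 and 1696 in WT, and all KO values lay below all WT values. KO stood at 25.1% of the WT level, with a log2 difference of -1.96 (SE 0.20), the 21st largest fall among the genes called lower. The dimmer one (1427028_at) read 109 and 163 in KO and 308 and 374 in WT, again with no overlap. Its level in KO was 39.8% of WT and its log2 difference -1.25 (SE 0.24), and it was not called. The call of the brighter probe set did not hold when WT replicate 2 was left out (-1.80), when dim probe sets were kept in the fit, or with arrays centred on basal markers.

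Lgr4, the most widely expressed receptor of this group in mouse tissues, read 1388 and 936 in KO and 1098 and 1193 in WT in its bright probe set (1433891_at). The KO arrays lay on either side of both WT arrays. The log2 difference was -0.01 (SE 0.20), with a 95% interval of -0.49 to 0.48, so a difference of the size seen for Lgr6 lies outside this interval. Its other probe set was dim, between 3.06 and 16.2 on the 4 arrays. Lgr5, a Wnt target gene that marks stem cells of the mouse intestine, read 181 and 154 in KO and 218 and 117 in WT (1450988_at). The WT arrays differed more from each other, by 0.82 on the log2 scale, than the genotypes did, and the difference was 0.06 (SE 0.30, 95% interval -0.66 to 0.77). Its dim probe set ran from 5.25 to 37.8 with overlapping arrays.

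Of the ubiquitin ligases, Rnf43 was lower on both KO arrays and Znrf3 differed little. Both are known as Wnt target genes that act back on the pathway. Rnf43 (1427008_at) read 122 and 192 in KO and 277 and 356 in WT. The groups did not overlap, and KO stood at 49.7% of WT. Its log2 difference of -0.96 (SE 0.26) was not called, and it passed only when KO replicate 2 was left out (-1.25). The same was true of the dimmer Lgr6 probe set (-1.51), and for both of them KO replicate 1 lay under the signal of 125.9 that marks the limit. Znrf3 (1435608_at) read 458 and 508 in KO and 532 and 553 in WT, at 89.0% of WT. The KO arrays were the lower ones but close to the WT arrays, and the log2 difference was -0.16 (SE 0.16, 95% interval -0.54 to 0.21). A second Znrf3 probe set under the limit read 69.0 and 42.5 in KO and 75.5 and 117 in WT, with no overlap.

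In bulk tissue, fewer cells of a type and less RNA per cell cannot be told apart, and the epithelial markers are therefore given beside these genes. Of 19 general epithelial markers tested, 1 fell and 1 rose, where 1.36% of all tested genes were called lower and 1.21% higher. At an unadjusted p under 0.05, 8 were lower and 2 higher, where 10.8% and 10.4% of all tested genes lay. Their median difference was -0.45. Their summed signal was 36435 to 56727 in KO and 52860 to 55189 in WT, with no marker at 0, and KO replicate 2 lay above both WT arrays. The median was -0.67 on KO replicate 1 and -0.18 on KO replicate 2. Of 10 basal and myoepithelial markers 1 fell and 0 rose (3 lower and 0 higher at an unadjusted p under 0.05), with medians of -0.80 and 0.04 on these arrays and summed signals of 21976 to 33271 in KO and 30773 to 36287 in WT. Of 9 luminal progenitor markers tested, 2 fell and 1 rose (4 lower and 2 higher at an unadjusted p under 0.05), with a median of -0.13. The summed signals of all 10 on the array were 24604 to 30035 in KO and 33387 to 37202 in WT. Of 6 hormone-sensing luminal markers 1 fell and 1 rose (2 lower and 2 higher at an unadjusted p under 0.05), with a median of -0.14 and summed signals of 8033 to 9095 in KO and 9009 to 9614 in WT. This median covers a split list, with Cited1 and Tnfsf11 at -2.59 each, Foxa1 at 1.08 and Esr1 at 0.50. Prlr, Ly6a and Areg of this list had no probe set assigned to them alone. Rspo1, both Lgr6 probe sets and Rnf43 were lower on KO replicate 1 than on KO replicate 2, as were the epithelial and basal medians. The luminal progenitor median was the other way round, at -0.27 on the first KO array and -0.48 on the other.

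With each array centred on the general epithelial markers, the Rspo1 difference was -3.20, that of the brighter Lgr6 probe set -1.59, that of the dimmer one -0.88 and that of Rnf43 -0.59. Under this centring the median of all tested genes was 0.36, against -0.01 as deposited. Centred on basal markers, the same 4 differences were -3.13, -1.53, -0.82 and -0.53, and the median of all genes was 0.42. Centred on luminal progenitor markers, they were -3.51, -1.90, -1.20 and -0.90, and the median of all genes was 0.05. The mean of this list was used, whose tested genes ranged from -1.27 for Csn3 to 3.73 for Ltf. Its small shift therefore does not show that these cells were equally many in both genotypes. A centring moves every probe set of an array by the same amount. The shifts from the deposited values are therefore shared by all genes and are no separate result for any member. The brighter Lgr6 probe set was not called under the basal centring, where its SE was 0.54, against 0.20 as deposited. By the same shift the difference of Lgr4 was positive under all 3 centrings, at 0.36, 0.43 and 0.05, close to the median of all genes each time. That of Znrf3 was positive under the first pair, at 0.20 and 0.27, but -0.11 on luminal progenitor markers. That of Lgr5 was positive throughout, and neither Lgr4, Lgr5 nor Znrf3 passed the threshold under any of them.

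**Figure D2:**
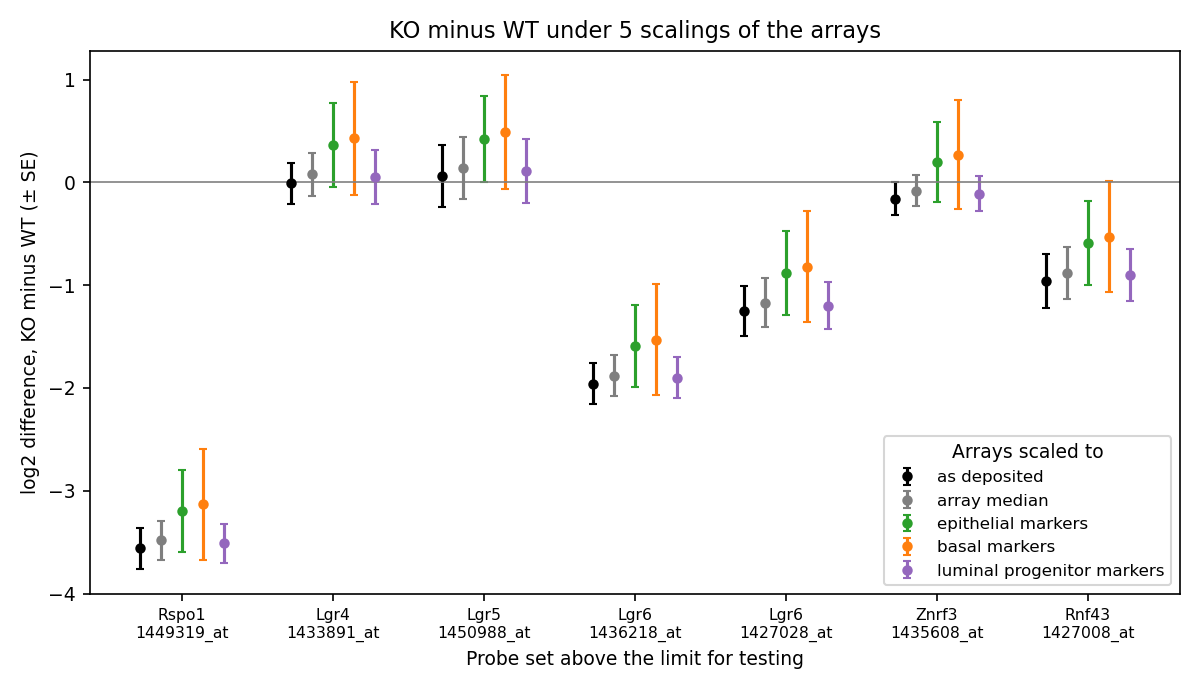
Log2 difference, KO minus WT, with its SE for the 7 tested member probe sets (x axis) with the arrays as deposited or centred on the array median, epithelial, basal or luminal progenitor markers. Rspo1 lies between -3.56 and -3.13 under these 5 scalings and the brighter Lgr6 probe set between -1.96 and -1.53, while Lgr4, Lgr5 and Znrf3 lie near 0.

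Genes of dividing cells were lower in KO beside Rspo1 and Lgr6. Of 11 tested, 7 fell and 0 rose, where 1.36% and 1.21% of all tested genes were called. At an unadjusted p under 0.05, 11 were lower and 0 higher, against 10.8% and 10.4% of all tested genes, with a median of -1.52 and summed signals of 7564 to 10085 in KO and 18154 to 25057 in WT. The skeletal muscle markers had a median of 2.68. Fibroblast, endothelial and adipocyte markers had medians of 0.07 each, and 0 members passed in any of these lists of 8, 8 and 7 tested genes (at an unadjusted p under 0.05, 0 lower and 1 higher, a fibroblast marker). Of 6 macrophage markers 0 passed (0 lower and 3 higher at an unadjusted p under 0.05), with a median of 0.32, and the 1 lymphocyte marker bright enough to be tested gave -1.21 and was not called. The part of dividing cells and of muscle in the values of the R-spondin set was not tested.

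**Figure D3:**
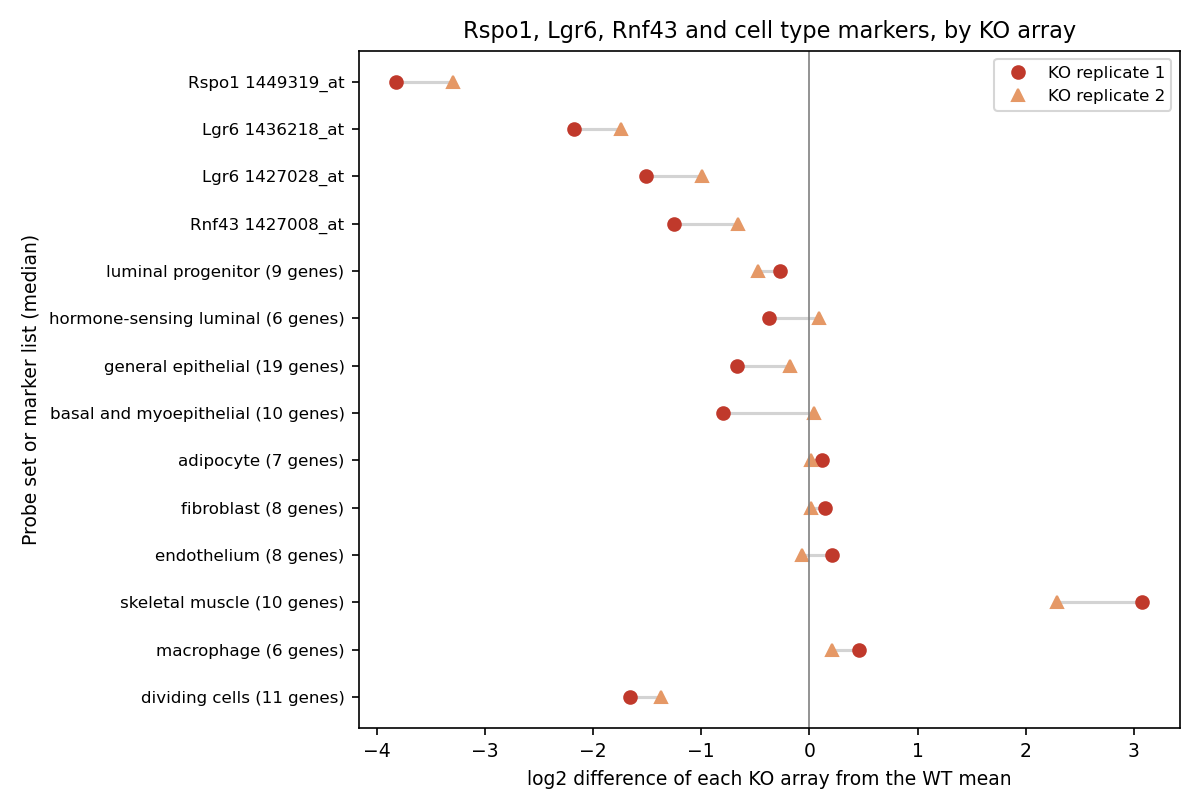
Log2 difference of KO replicate 1 (red circles) and KO replicate 2 (orange triangles) from the WT mean, for the Rspo1, Lgr6 and Rnf43 probe sets (top 4 lines) and as the median of each cell type marker list. Rspo1 stands at -3.82 and -3.30, the general epithelial markers at -0.67 and -0.18 and the skeletal muscle markers at 3.08 and 2.29.

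The rest of the Wnt pathway was examined in 7 lists of 65 tested genes, of which 1 fell and 4 rose in limma. Over all 11360 tested genes 2.57% were called, 1.36% lower and 1.21% higher, and the median difference was -0.01. Their shares at an unadjusted p under 0.05 were 10.8% lower and 10.4% higher. Of 9 Wnt ligands tested, 1 rose and 0 fell (2 lower and 3 higher at an unadjusted p under 0.05), with a median of -0.17. Wnt9a read 244 and 259 in KO and 109 and 92.1 in WT, a log2 difference of 1.20 (limma adjusted p = 0.0451). Over its alternatives the adjusted p was 0.0156 to 0.290. The lowest value came with epithelial centring, where the SE was 0.42 against 0.21 as deposited. Its call was lost with any single array left out, with dim probe sets kept and centred on basal markers, and no other probe set of it was tested. Both WT signals lay under 125.9, so it entered the test only through the KO arrays. Wnt4, the partner of Rspo1 in the mouse mammary gland, was chosen after its values were seen. It read 645 and 808 in KO and 1247 and 1314 in WT in its brighter probe set, with a log2 difference of -0.81 that did not pass (limma adjusted p = 0.0583). Its other probe set read 387 and 578 in KO and 814 and 964 in WT (-0.88, limma adjusted p = 0.0921). In both, the KO arrays lay below the WT arrays with no overlap, as in 28.0% of all tested probe sets.

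Of the receptors and coreceptors that ZNRF3 and RNF43 act on, 0 of 11 Frizzled and LRP genes tested passed in limma, with a median of -0.01. An unadjusted p under 0.05 was reached by 1 lower and 2 higher, against 10.8% and 10.4% of all tested genes. The largest differences in this list were those of Fzd4 and Fzd2. Fzd4 read 3530 and 2276 in KO and 1476 and 1470 in WT (log2 difference 0.94, limma adjusted p = 0.0735), but its other tested probe set gave 0.16. Fzd2 read 630 and 861 in KO and 1259 and 1037 in WT (-0.62, adjusted p = 0.151), and its other tested probe sets gave -0.37 and -0.22. Syndecans and glypicans, heparan sulfate proteoglycans at the cell surface, had 0 of 8 past the threshold in limma (1 lower and 0 higher at an unadjusted p under 0.05) and a median of -0.01. Sdc4 gave -0.81 in one probe set and 0.36 in another, and Gpc6 gave -0.37 to 0.38 over 5 probe sets.

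Of the 10 Wnt feedback and target genes tested, 0 passed in limma, with a median of -0.26. An unadjusted p under 0.05 was reached by 3 lower and 1 higher, against 10.8% and 10.4% of all tested genes. Under the epithelial centring, where the median of all genes was 0.36, this list's median was 0.10 and that of the Wnt ligands 0.20, so the sign of both depends on the scaling. Ccnd1, which encodes cyclin D1 of the cell cycle, read 1885 and 2834 in KO and 3961 and 5337 in WT in its brightest probe set (-0.99, limma adjusted p = 0.0792). Its dimmest tested probe set, at -1.43, passed (adjusted p = 0.0352). Tnfrsf19 gave -0.92 (adjusted p = 0.120). Axin2, a widely used readout of Wnt signalling, was chosen after its values were seen. It read 824 and 693 in KO and 644 and 756 in WT, with overlapping arrays and a log2 difference of 0.11 (95% interval -0.29 to 0.51).

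Secreted Wnt antagonists and Dkk receptors changed in both directions, with 1 called lower and 2 higher of 9 tested and a median of -0.05. Of all tested genes, 1.36% were called lower and 1.21% higher. At an unadjusted p under 0.05, 3 genes of this list were lower and 4 higher, against 10.8% and 10.4% of all tested genes. Wif1, a secreted protein that binds Wnt ligands, read 190 and 102 in KO and 538 and 652 in WT (log2 difference -1.96, limma adjusted p = 0.0324). Dkk2, which binds LRP coreceptors, read 488 and 306 in KO and 89.8 and 59.7 in WT (2.17, adjusted p = 0.0308). Both WT signals of Dkk2 lay under 125.9, so it entered the test only through the KO arrays, and without KO replicate 1 it was not tested. Sfrp4, a soluble relative of the Frizzled receptors, read 2765 and 1911 in KO and 848 and 780 in WT (1.48, adjusted p = 0.0297). For these 3 genes KO and WT arrays were fully apart. All 3 lost their calls with no filter and without WT replicate 2, and Wif1 and Sfrp4 also without WT replicate 1 and centred on basal markers. Over the alternatives the log2 difference was -2.36 to -1.53 for Wif1, 1.71 to 2.60 for Dkk2 and 1.22 to 1.91 for Sfrp4. Centred on epithelial markers, the limma adjusted p was 3.78e-07 for Dkk2 and 0.000922 for Sfrp4. Their SE grew under this centring, from 0.29 to 0.42 and from 0.20 to 0.41, so these small values do not reflect greater precision. The part of muscle in these differences was not tested.

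Genes that carry the signal inside the cell differed little. Of 17 tested, 1 rose and 0 fell, with a median of -0.00. An unadjusted p under 0.05 was reached by 1 lower and 1 higher, against 10.8% and 10.4% of all tested genes. The gene that rose was Porcn, the enzyme that attaches the lipid needed for Wnt secretion, which acts in the cells that send Wnt. It read 1350 and 1260 in KO and 479 and 476 in WT, a log2 difference of 1.42 (limma adjusted p = 0.0138). Over its alternatives the adjusted p was 0.00116 to 0.0940. The lowest value came with epithelial centring, where the SE was 0.40 against 0.14 as deposited. Its call was lost without WT replicate 2 and centred on basal markers. Among other leucine-rich repeat receptors only Tshr was bright enough to be tested, at -0.69 (limma adjusted p = 0.241).

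**Figure D4:**
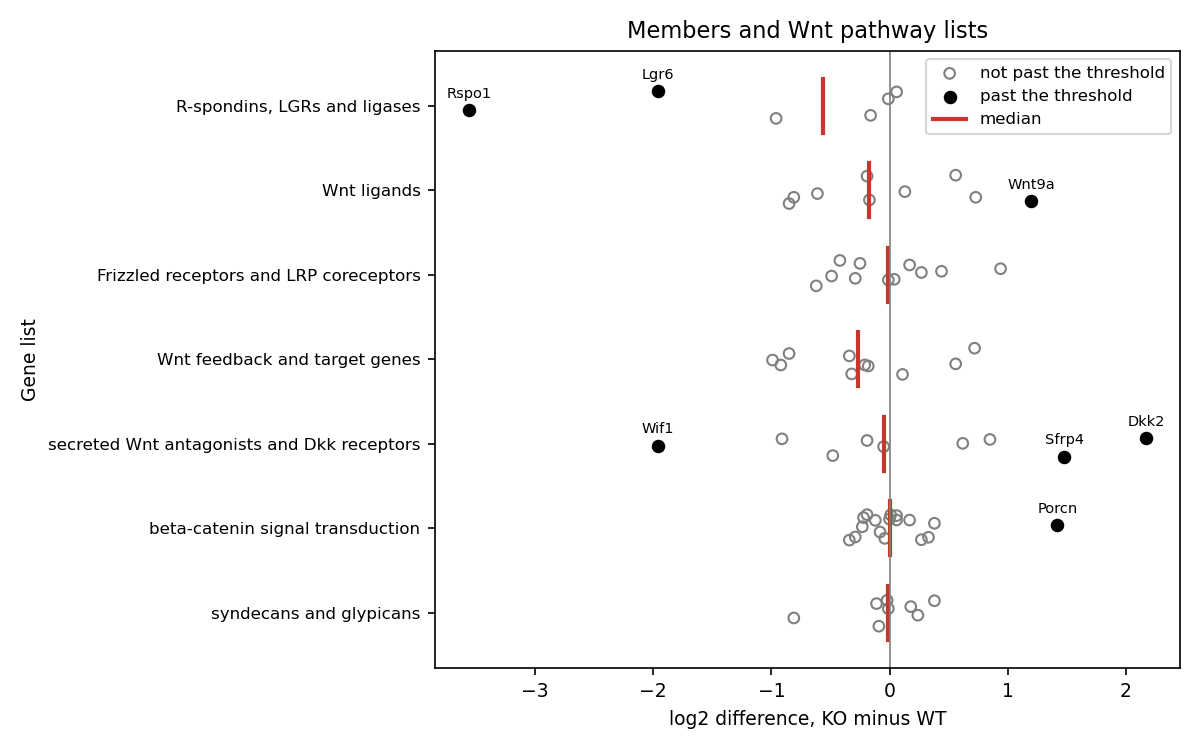
Log2 difference, KO minus WT, of each tested gene (points, brightest probe set) in the R-spondin set (top line) and the Wnt pathway lists, with filled points past the threshold and a red line at the median. The medians of the 6 pathway lists drawn lie between -0.26 and -0.00 and that of the R-spondin set, whose members were chosen with this difference known, at -0.56.

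The genes whose 4 array values lay nearest to those of Rspo1 were Gjb2, Atp6v1c2, Hepacam2, Col9a1 and Wfdc12. Likeness was the root mean square difference of centred log2 values over the 4 arrays, taken over 11359 other genes. It was 0.143 for Gjb2, which encodes a gap junction protein, 0.174 for Atp6v1c2, part of the V-ATPase that acidifies organelles, and 0.291 for Hepacam2. It was 0.333 for Col9a1, a collagen chain, and 0.371 for Wfdc12, which has a WAP-type domain. Gjb2 read 147 and 231 in KO and 2054 and 2426 in WT. The choice used all 4 arrays, so the order of its KO arrays, the same as for Rspo1, is no separate likeness. With 2 arrays per genotype, likeness rests mostly on a fall of the same size.

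Chromosomal neighbours of the set were read from the gene order of RefSeq. The neighbours of Rspo1 on chromosome 4 were 9930104L06Rik, at -0.39, and Gnl2, at -0.49. The first read 140 and 136 in KO and 172 and 198 in WT, and Gnl2 read 589 and 648 in KO and 821 and 931 in WT. Both were lower in KO with no overlap, as were 28.0% of all tested probe sets, and neither was called. Of 18 protein-coding neighbours of the 9 members, 11 were bright enough to be tested and 0 passed in limma, with differences of -0.50 to 0.80. An unadjusted p under 0.05 was reached by 2, where 10.8% of all tested genes were lower and 10.4% higher. The only neighbour of Lgr6 with a probe set, Ube2t, was under the limit and read 74.0 and 87.1 in KO and 171 and 206 in WT. Its arrays did not overlap, and 22.8% of all probe sets under the limit lay lower in KO with no overlap. Its log2 difference was -1.08 (SE 0.24, from the fit with no filter), and any link to the fall of Lgr6 was not tested. Rnf43 and Znrf3 lie on chromosome 11, Rspo3 and Lgr5 on chromosome 10 and Rspo4 and Lgr4 on chromosome 2, none of these pairs being neighbours.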

How the data were processed

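Mammary RNA was hybridised to 4 Affymetrix mouse arrays, 2 KO and 2 WT, with genotypes from the labels. Replicate numbers follow accession order and pair no animals. The authors deposited linear intensities per probe set, computed by MAS5 according to the submitters' processing notes, whose version and settings are not given in the sources used here. In those deposited values each array has a 2% trimmed mean of 500.0. Median signals were 121.4 and 124.4 in KO and 131.4 and 130.6 in WT. Detection calls were not used here, so whether a dim signal exceeded background is unknown. The number of arrays limits the precision, and p-values reflect no more than the spread among these 4 samples.

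Of 45101 probe sets 64 controls were left out. The platform annotation named 1 gene for 34945 of the other 45037, several for 932 and none for 9160, and updating through Entrez identifiers changed 0 symbols. In lists the brightest probe set by mean log2 value stood for a gene. A pseudocount of 16 was added before log2, so the change of dim genes is understated. Probe sets at or above the median mean log2 value were tested with limma 3.58.1 in R 4.3.3 (lmFit, eBayes with a trend, 2 residual degrees of freedom), adjusted after Benjamini-Hochberg across every tested probe set, with 0.05 as the threshold. Probe sets under the limit have values from the fit with no filter, and no call. The script was tested on simulated data. An exact permutation test of 2 against 2 arrays was not used.

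The members and lists were chosen with earlier results of these data known. Named genes were all members, Stat5a, Stat5b, from each pathway list up to 4 genes past the threshold or otherwise the 2 with the largest difference, and the 5 genes nearest to Rspo1. Wnt4, Axin2 and the chromosomal neighbours of the members were added after values were seen. Alternatives tried were pseudocounts of 1 and 64, quantile normalization, 4 centrings, no filter or a filter at the 75th percentile, no trend, the mean of a gene's tested probe sets and leaving out each array. Centring on basal or luminal progenitor markers was chosen after seeing the data.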

Additional observations from a re-analysis of the deposited data

How the results depend on the processing

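Rspo1 kept its direction and its call in all 14 alternatives that were read by probe set, with a log2 difference of -3.82 to -3.13. The mean of a gene's tested probe sets is not among them, and no such mean is given here for Lgr6. The brighter Lgr6 probe set kept its direction in 14 and its call in 11 of 14, at -2.18 to -1.53, and the dimmer one and Rnf43 kept their direction and gained a call in 1 of 13 each, without KO replicate 2. The 2 member probe sets past the threshold numbered 1 to 4 with an array left out (1 without WT replicate 2, 4 without KO replicate 2), 1 centred on basal markers and 1 with dim probe sets kept. The 5 pathway genes past the threshold numbered 0 to 11 with an array left out (0 without WT replicate 2, 2 without WT replicate 1, 11 without KO replicate 2), 1 centred on basal markers, 1 with dim probe sets kept and 2 with the 75th percentile filter. Over the whole array 292 genes passed, against 43 to 601 with an array left out (43 without WT replicate 2, 100 without WT replicate 1, 601 without KO replicate 2), 27 with dim probe sets kept, 127 with the 75th percentile filter, 137 with no trend and 81 centred on basal markers. Of these 292, 154 were lower and 138 higher, against 119 and 192 centred on the array median, 65 and 213 centred on epithelial markers and 21 and 60 centred on basal markers. The number of probe sets tested differed between the filters, and the cause of the changes in count was not tested for any setting. No paired analysis was possible because the labels give no replicate numbers shared between the genotypes. Dim signals limit what can be said of Rspo2, Rspo3 and Rspo4, and 2 arrays per genotype limit the rest.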
